A study of Mus musculus with 30 samples.

Results

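Bivalent promoters that carried H3K27me3 in wild-type motor neurons but had none called in the Mnx1-knockout line HD are described here. Wild-type H3K4me3 regions were taken 1 row per unique start and end, and a region was kept when it shared at least 1 base with a wild-type H3K27me3 region and none with an HD H3K27me3 region. The choice left 1891 of 21286 wild-type H3K4me3 regions (8.88%). They were 27.1% of the 6970 wild-type regions that carried both marks, called bivalent below. The other 5079 bivalent regions also overlapped H3K27me3 in HD and are called retained, and 14316 H3K4me3 regions had no H3K27me3 in wild type. The regions were chosen by their overlap with both H3K27me3 lists, so the absence of H3K27me3 in HD is the definition of the 1891 regions and is given as a description with no test.

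The cells were motor neurons made from mouse embryonic stem (ES) cells, and were collected on day 6 of differentiation with retinoic acid (RA, 1 µM), the Smoothened agonist SAG (1 µM), doxycycline (DOX, 1 µM) and DAPT (5 µM), an inhibitor of Notch processing. Wild-type motor neurons were compared with motor neurons of the lines HD and EH, which share the genotype label Mnx1KO, and with undifferentiated wild-type ES cells. The labels do not say what HD and EH stand for, how the alleles differ, or whether a line is 1 clone. RNA was measured in 2 libraries each of ES cells, wild-type, HD and EH motor neurons, while histone marks were mapped in wild type and HD and binding of Mnx1 in wild type, with 1 deposited region list per mark and genotype. H3K9me3 and input had 1 library per genotype. Among the antibodies the labels list is one against GFP, and none is against Mnx1; the way Mnx1 was captured is not given. Peak names inside the wild-type H3K27ac list read as a knockout, and the list was used as wild type because its label says so. With 1 list per mark and genotype, differences between lists have no replicate spread, and the lists give no read depth. The labels do not say that RNA replicates were separate cultures, so p-values measure the spread between libraries, which may be technical. In bulk RNA, fewer cells of a type and less RNA per cell cannot be told apart. The region lists come from bulk cultures too, so 2 marks called at 1 region may lie in different cells.

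H3K4me3 is laid down at gene starts and is a mark of promoters, and H3K27me3 is laid down by the Polycomb repressive complex PRC2 and accompanies silencing. Promoters with both marks are called bivalent, and in ES cells they are known at many developmental regulator genes that are silent but can be switched on as cells differentiate. H3K27ac, which marks active promoters and enhancers, sits on the same lysine as H3K27me3, so a single histone tail cannot carry both. Mnx1 is a homeodomain protein that defines motor neurons and is known to repress interneuron genes.

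The 250 bases upstream of the gene start are shown for the 5 member genes whose RNA passed the test in HD below, and for Mnx1 itself, whose own promoter was a member. They are printed 5′ to 3′ along the gene's strand in lower case with CpG dinucleotides in capitals, from RefSeq (GRCm38.p6).
St8sia4, chr1:95667595-95667844, minus strand: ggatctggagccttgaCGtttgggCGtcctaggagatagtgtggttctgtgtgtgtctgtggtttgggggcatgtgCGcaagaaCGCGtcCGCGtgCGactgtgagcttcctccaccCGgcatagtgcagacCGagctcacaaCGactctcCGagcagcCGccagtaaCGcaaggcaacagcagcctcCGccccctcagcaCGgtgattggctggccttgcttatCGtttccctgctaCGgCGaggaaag
Cdh20, chr1:104768270-104768519, plus strand: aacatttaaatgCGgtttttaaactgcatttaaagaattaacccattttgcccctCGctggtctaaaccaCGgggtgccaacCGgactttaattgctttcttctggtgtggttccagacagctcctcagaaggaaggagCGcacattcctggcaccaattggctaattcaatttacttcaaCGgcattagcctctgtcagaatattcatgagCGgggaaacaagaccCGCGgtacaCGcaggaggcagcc
Cttnbp2, chr6:18514870-18515119, minus strand: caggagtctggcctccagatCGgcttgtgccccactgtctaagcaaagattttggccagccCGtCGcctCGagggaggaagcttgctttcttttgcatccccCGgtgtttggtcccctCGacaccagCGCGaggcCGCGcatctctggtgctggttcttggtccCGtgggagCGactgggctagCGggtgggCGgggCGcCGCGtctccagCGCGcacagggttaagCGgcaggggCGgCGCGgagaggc
Lin7a first start, chr10:107271581-107271830, plus strand: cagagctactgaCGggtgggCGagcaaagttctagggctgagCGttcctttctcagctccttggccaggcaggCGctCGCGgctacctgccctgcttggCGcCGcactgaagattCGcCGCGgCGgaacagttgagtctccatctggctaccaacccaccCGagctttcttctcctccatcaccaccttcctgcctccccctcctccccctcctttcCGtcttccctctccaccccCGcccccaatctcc
Lin7a second start, chr10:107272144-107272393, plus strand: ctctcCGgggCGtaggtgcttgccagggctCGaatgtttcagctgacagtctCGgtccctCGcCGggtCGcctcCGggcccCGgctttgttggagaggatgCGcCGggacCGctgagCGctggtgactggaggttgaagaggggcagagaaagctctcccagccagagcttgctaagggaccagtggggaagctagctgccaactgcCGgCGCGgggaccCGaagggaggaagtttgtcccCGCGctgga
Pcsk1, chr13:75089607-75089856, plus strand: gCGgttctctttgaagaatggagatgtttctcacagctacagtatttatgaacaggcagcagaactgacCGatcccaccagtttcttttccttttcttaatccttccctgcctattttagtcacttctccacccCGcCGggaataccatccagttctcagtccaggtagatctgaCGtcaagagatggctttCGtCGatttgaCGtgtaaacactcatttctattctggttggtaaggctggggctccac
Mnx1, chr5:29478471-29478720, minus strand: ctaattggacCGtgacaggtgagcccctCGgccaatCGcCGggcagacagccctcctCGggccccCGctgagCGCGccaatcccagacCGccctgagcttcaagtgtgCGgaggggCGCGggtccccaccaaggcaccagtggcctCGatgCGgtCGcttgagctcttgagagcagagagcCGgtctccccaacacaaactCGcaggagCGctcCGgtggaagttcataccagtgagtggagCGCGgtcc

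These promoters held from 8 CpGs at Pcsk1 to 23 at Cttnbp2, with 10 at Cdh20, 15 and 19 at the starts of Lin7a, 19 at St8sia4 and 21 at Mnx1. Wild-type H3K27me3 covered all 250 bases shown at Cdh20, Cttnbp2, Mnx1 and the second start of Lin7a, and 189 bases at the first start of Lin7a. It covered 0 bases at St8sia4 and Pcsk1, where it lay elsewhere in the H3K4me3 region. Over the 300-base windows from 250 bases before to 50 after each RefSeq start, members had a median of 19 CpGs (1198 promoters), retained regions 20 and H3K4me3 regions without H3K27me3 21. Promoters with no wild-type H3K4me3 region had a median of 3. Among members, the median was 23 where wild-type H3K27ac overlapped the promoter's region and 14 where it did not. The letters TAATTA, a homeodomain core motif that reads the same on both strands, were found in 24 of 1198 member promoters (2.00%). The shares were close at retained promoters (2.30%) and at promoters of H3K4me3 regions without H3K27me3 (2.36%). Of promoters with no wild-type H3K4me3 region 7.86% held the letters, and of all 32851 promoters 5.29%. TAATTA was in none of the windows of the 7 sequences printed.

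H3K27me3 at the members was low and narrow in wild type. The MACS2 fold over background of the wild-type H3K27me3 region, the authors' own value per region, taken from the one of highest fold where a region touched several, had a median of 3.15 at members (quartiles 2.86 and 3.49, range 2.35 to 20.6) against 6.34 at retained regions. Its width had a median of 858 bp against 3382 bp, and its −log10 q a median of 2.92 against 16.3. The lowest fold in the whole wild-type list was 2.29, so most members lay near the lower end of what was called at all. The share of bivalent regions that were members went down with the fold: 704 of 793 below 3 (88.8%), 1032 of 1801 from 3 to 4 (57.3%), 131 of 1626 from 4 to 6 (8.06%) and 24 of 2750 at 6 or more (0.873%). H3K27me3 covered a median of 47.8% of a member and 100% of a retained region. It covered 235 members wholly and 89 members over less than 10% of their length.

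**Figure D1:**
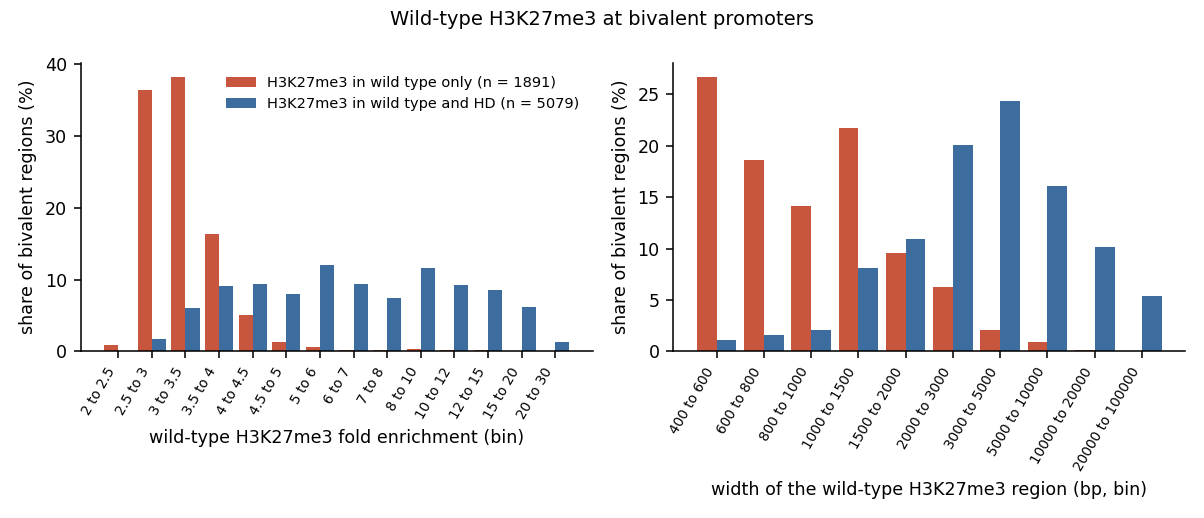
Share of bivalent wild-type H3K4me3 regions (y axis, percent of each class) by the fold of the wild-type H3K27me3 region and by its width in bp (x axes, bins), for the 1891 members (red) and the 5079 retained regions (blue). Members pile up at folds below 4 and at narrow widths, with medians of 3.15 and 858 bp against 6.34 and 3382 bp.

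The HD list was shorter than the wild-type list as a whole. It held 5729 H3K27me3 regions over 12.9 Mb against 9365 over 20.3 Mb, and 49.0% of wild-type regions had no HD counterpart, while 3.86% of HD regions had no wild-type counterpart. The reverse class, HD H3K4me3 regions with H3K27me3 in HD and none in wild type, held 51 of 4694 (1.09%). The strongest folds were also lower in HD, at 17.4 against 27.01 for H3K27me3 and 50.8 against 119 for H3K4me3. The median folds were 3.39 against 3.49 for H3K27me3 and 18.2 against 33.8 for H3K4me3. The H3K27ac list was longer in HD, with 20698 regions against 19174. Its highest fold was 15.2 against 14.9 and its median fold 2.94 against 3.18. Whether the members lost H3K27me3 or fell below the calling threshold in HD cannot be told apart in these lists. The 1891 members touched 2051 wild-type H3K27me3 regions, of which 1955 (95.3%) met no HD H3K27me3 region anywhere along their length. An HD H3K27me3 region lay within 1 kb of 117 members (6.19%) and within 100 kb of 999 (52.8%), and the median distance was 87316 bp.

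The rule has a sharp edge, since 1 shared base decides. Just inside it, the nearest HD H3K27me3 region was 2 bp from the member at Slc41a2 (chr10:83336744-83338313), 4 bp from a member with no gene start (chr12:61525934-61526767) and 15 bp from the member at Sh3gl2. Just outside it, HD H3K27me3 shared 19 bp with the region at Nppc and 22 bp with those at Ppp3cc and at Gm34296. Their wild-type folds were 3.79, 2.87 and 3.96 inside and 3.74, 3.05 and 3.28 outside.

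Several of the few members with high wild-type H3K27me3 sat at the edge of a broad region. At Grwd1, which encodes a ribosome assembly factor, a wild-type region with a fold of 20.6 covered 6.10% of the member, and HD H3K27me3 began 212 bp away. Rsrc1, with a fold of 13.7, and Dph1, an enzyme of diphthamide synthesis, with 12.7, had HD H3K27me3 at 520 and 730 bp. Pank4 followed with a fold of 11.9 and HD H3K27me3 at 156 bp. By contrast, H3K27me3 covered 83.3% of the member at Myorg (fold 9.34) and 78.6% of that at Spef1 (fold 7.59). At Dusp5, a MAP kinase phosphatase, the fold was 5.31 and the nearest HD region was 141810 bp away. In RNA, none of Grwd1, Rsrc1, Dph1, Pank4 and Dusp5 passed the test of HD against wild type, with log2 fold changes from -0.25 to 0.08.

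Members kept H3K4me3 in HD about as often as other regions, and carried H3K27ac more often than retained regions did. H3K4me3 was called in HD at 1627 members (86.0%), at 89.5% of retained regions and at 88.0% of regions without H3K27me3. Wild-type H3K27ac overlapped 722 members (38.2%), against 18.3% of retained regions and 64.0% of regions without H3K27me3. In HD the shares were 40.5%, 19.9% and 65.6%. Of the members, 697 had H3K27ac in both lists, 25 in wild type alone, 69 in HD alone and 1100 in neither, so H3K27ac appeared in the HD list alone at 3.65% of members, near the 3.14% of all H3K4me3 regions. H3K9me3, a mark of heterochromatin, overlapped 7.99% of members, 52.5% of retained regions and 2.33% of the regions without H3K27me3 in wild type, and 3.65%, 36.9% and 1.84% in HD. Mnx1 binding was called at 185 members (9.78%), 4.00% of retained regions and 19.1% of regions without H3K27me3.

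**Figure D2:**
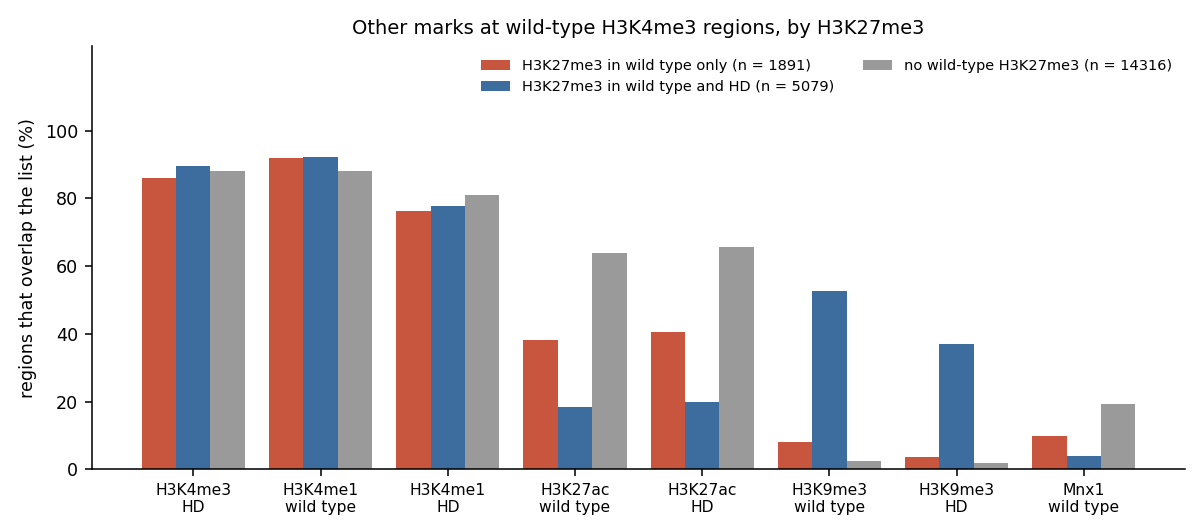
Percent of wild-type H3K4me3 regions (y axis) that overlap each deposited region list (x axis) for members, retained bivalent regions and regions without wild-type H3K27me3. Members lie between the other classes for H3K27ac (38.2% in wild type), H3K9me3 (7.99%) and Mnx1 (9.78%).

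The fold of H3K27me3 and the width of the H3K4me3 region moved with these shares. At folds from 3 to 4, wild-type H3K27ac was called at 36.0% of members and 30.4% of retained regions, and H3K9me3 at 9.01% and 15.9%. At folds from 4 to 6, H3K27ac was called at 33.6% of members and 24.5% of retained regions. Among members, H3K27ac was found at 3.51% of regions under 1 kb, 19.3% from 1 to 2 kb, 79.5% from 2 to 4 kb and 97.5% at 4 kb or more. The retained regions had 0.452%, 3.89%, 31.5% and 71.2% in the same width classes. Mnx1 binding followed width too, from 0.924% of members under 1 kb to 43.4% at 4 kb or more. H3K4me3 was called again in HD at 54.5% of members under 1 kb and at 97.3% of those from 1 to 2 kb.

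Among members, 1247 (65.9%) held a gene start within 1000 bp, close to the 66.8% of retained regions and 70.3% of regions without H3K27me3. Where the RefSeq promoters did not hold a gene, either of its ends stood for its start. That was so for 451 pairs of member and gene, against 1082 from RefSeq promoters. The 1247 had a median H3K4me3 width of 2012 bp and a median H3K4me3 fold of 44.0, and 49.2% had wild-type H3K27ac. The 644 members without a gene start had a median width of 915.5 bp, a median fold of 6.54 and H3K27ac at 16.8%. The name promoter is therefore used here for the 1247, though some of them may lie at the far end of a gene. Over 951 member starts with a RefSeq position, wild-type H3K27me3 covered the start itself at 398 (41.9%). Where it did not, all of the member's H3K27me3 lay downstream of the start at 370, upstream at 145 and on both sides at 38. These were 38.9%, 15.2% and 4.00% of all 951 starts. H3K27me3 covered 83.0% of retained starts. In the 722 members with wild-type H3K27ac, H3K27ac and H3K27me3 shared bases in 550 (76.2%), against 89.1% of retained regions with H3K27ac. Bases shared by bulk lists may carry the 2 marks in different cells.

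**Figure D3:**
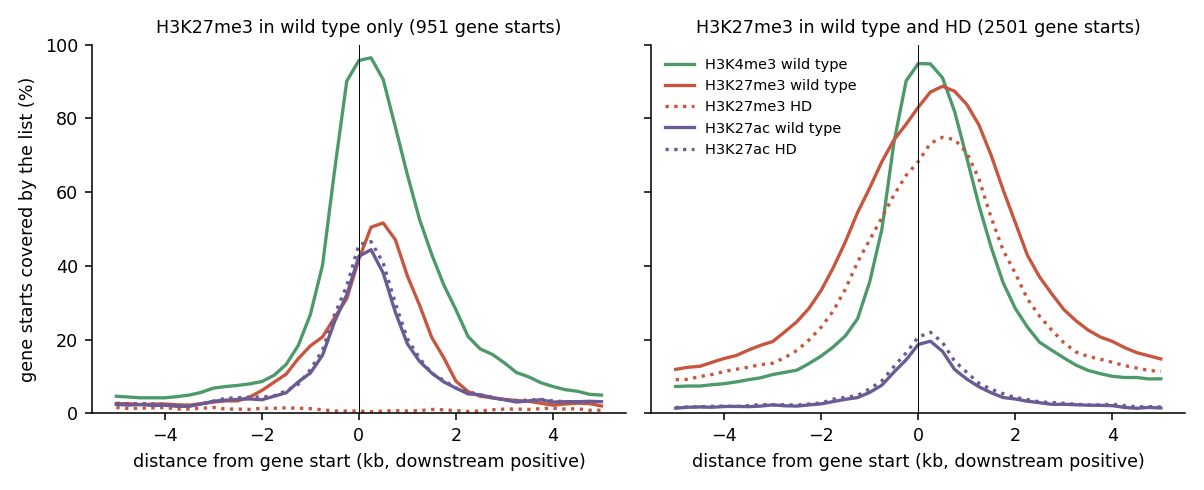
Percent of gene starts (y axis) covered by a deposited region list at each distance from the start (x axis, bp, -5000 upstream to 5000 downstream), for 951 member starts and 2501 retained starts. Wild-type H3K27me3 reached 51.6% of member starts and 88.7% of retained starts 500 bp downstream, while HD H3K27me3 stayed at or under 1.58% over members.

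Few of the listed factors that specify cell types were members, and most were retained. Of 39 Hox genes, 5 were at members and 32 at retained regions. Of 139 other homeobox genes, 3 were members and 119 retained, and of 62 basic helix-loop-helix genes, 1 was a member (Neurod1) and 50 retained. All 27 spinal interneuron markers listed were retained, and of 18 motor neuron markers 14 were retained and 1, Mnx1, was a member. Among surface and signalling genes, members were 21 of 105 axon guidance and adhesion genes, 8 of 41 FGF and Hedgehog genes, 7 of 53 genes of the BMP, TGF-beta and activin pathway, 13 of 113 transmitter genes and 11 of 108 ion channel genes. Retained regions held more of each, with 41, 22, 28, 64 and 68 genes in the same order. Retained regions also held more genes in total, 3945 against 1445 at members alone. Of 37 Polycomb and H3K27 demethylase genes, 1 was a member, Scmh1, a PRC1 subunit. None of the 12 H3K4 methyltransferase genes was a member.

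The Mnx1 promoter itself was a member. Its H3K4me3 region (chr5:29467435-29482069) was 14635 bp wide, and H3K27me3 lay on 14.05% of it in 3 narrow regions. These had folds of 3.28 over 400 bp (chr5:29473709-29474108), 2.89 over 449 bp and 2.96 over 1207 bp, the last across the gene start. H3K27ac was called there in both genotypes, and Mnx1 binding in wild type had a fold of 5.73. Mnx1 RNA was at 440 and 397 CPM (counts scaled to the library total) in wild type, 412 and 351 in HD, 527 and 672 in EH, and 0.588 and 0.498 in ES cells. HD and wild type overlapped, and the log2 fold change of HD was -0.14 ± 0.15 (SE; adjusted p = 0.977 with edgeR's quasi-likelihood test). How the alleles alter the transcript is not stated, so its level does not check the knockout.

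Several other members lay at transcription factor genes and carried H3K27ac in both genotypes. The widest was at Meis2, a Hox cofactor, where H3K4me3 spanned 17987 bp (chr2:116055096-116073082). Hoxa5 and Hoxa6 lay in neighbouring members that shared a wild-type H3K27me3 region of 2291 bp, beside further H3K27me3 regions in each, and the nearest HD H3K27me3 was at 4904 and 2330 bp. Sox11, a neuronal SoxC factor, Rara, a retinoic acid receptor, and Hoxb2 were members too. None of Meis2, Hoxa5, Sox11, Rara and Hoxb2 passed the test of HD against wild type in the fit of 6 motor neuron libraries.

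Member genes were expressed at levels between the other classes. RefSeq starts and gene ends put 1504 genes at members. Removing 59 that were also at a retained region left 1445 (1123 protein-coding), of which 1239 were in the RNA files. The median TPM, the deposited level scaled for transcript length and library total, over member genes was 8.15 and 7.82 in the wild-type libraries, 8.80 and 8.53 in HD, 7.11 and 7.12 in EH, and 1.44 and 1.50 in ES cells. Genes at retained regions had medians of 2.18 and 2.14 TPM in wild type, and genes at regions without H3K27me3 24.7 and 23.7. Member genes with H3K27ac in both genotypes stood at 21.5 and 20.6 TPM in wild type, and those with none at 1.69 and 1.42. In wild type 75.8% of member genes exceeded 1 TPM, against 60.8% of genes at retained regions.

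**Figure D4:**
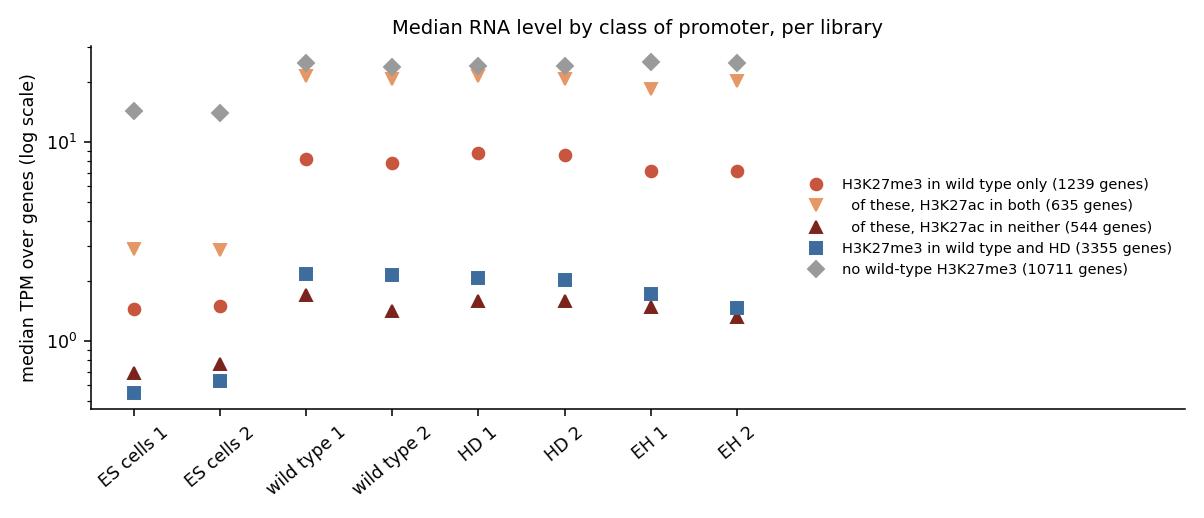
Median level per RNA library (y axis, TPM, log scale) of genes at members, at retained regions and at regions without H3K27me3 (x axis, libraries by group). Members lie between the other classes in all 8 libraries, and the medians of HD (8.80 and 8.53 TPM) and wild type (8.15 and 7.82 TPM) are close.

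The comparison of HD with wild type asks which genes changed where H3K27me3 was no longer called. Of 1239 member genes, 994 passed the filter on low counts, and 5 rose in HD (0.503%) and none fell, at an adjusted p under 0.05 (edgeR quasi-likelihood test, Benjamini-Hochberg over all 15565 genes, 2 libraries per group, all 3 motor neuron groups in the fit). Over all genes 0.173% passed, with 0.135% higher and 0.0385% lower. Among genes at retained regions 10 of 2349 rose and 3 fell. At an unadjusted p under 0.05, 95 member genes were higher and 19 lower. The same counts were 206 and 113 of 2349 at retained regions and 577 and 294 of all 15565 genes. DESeq2, run as an alternative, called 24 higher and 1 lower, against 0.973% of all genes it tested. The median log2 fold change was 0.04 over member genes, -0.07 over genes at retained regions and -0.01 over the rest, and 556 of 994 member genes were above 0, as were 7251 of all 15565 genes. The member genes with H3K27ac in both genotypes had a median of 0.07 (2 of 576 called), and those with none a median of -0.09 (1 of 364 called).

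The 5 genes that rose encode neuronal surface, synaptic and peptide-processing proteins. St8sia4 (ENSMUSG00000040710), which builds polysialic acid on the adhesion molecule NCAM, was at 16.3 and 18.6 CPM in wild type, 58.5 and 54.7 in HD, and 19.0 and 19.9 in EH. Both HD libraries were far above the wild-type and EH libraries, which lay close together, and the log2 fold change of HD was 1.69 ± 0.12 (SE; edgeR adjusted p = 0.0102). Its member (chr1:95664486-95668824) had an H3K27me3 fold of 3.22 over 34.8% of its length, and H3K27ac called in HD alone. Cdh20 (ENSMUSG00000050840), a type II cadherin, was at 0.869 and 1.92 CPM in wild type, 17.9 and 17.5 in HD, and 1.84 and 2.06 in EH. Outside HD it stood near 2 CPM or below, and the log2 fold change of HD was 3.66 ± 0.32 (adjusted p = 0.0193 with edgeR), the largest of the 5. In its member (chr1:104768104-104770082), a H3K27me3 region with a fold of 3.90 covered 63.3% and another with a fold of 2.82 covered 6.87%, and no H3K27ac was called there in either genotype.

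Cttnbp2 (ENSMUSG00000000416), a cortactin-binding protein of dendritic spines, was at 7.42 and 8.77 CPM in wild type, 23.7 and 24.0 in HD, and 5.63 and 6.66 in EH. HD again stood apart, while EH lay below wild type, and the log2 fold change of HD was 1.55 ± 0.16 (edgeR adjusted p = 0.0317). In its member (chr6:18513095-18515500), H3K27me3 regions with folds of 3.00 and 2.96 covered 56.4% and 29.4%, and the H3K27ac fold was 2.10 in wild type and 2.75 in HD. Lin7a (ENSMUSG00000019906), a PDZ scaffold of synaptic membranes, was at 28.5 and 37.5 CPM in wild type, 127 and 113 in HD, and 38.7 and 59.2 in EH. Its log2 fold change in HD was 1.86 ± 0.22 (edgeR adjusted p = 0.0494), and no HD library overlapped the others. At its member (chr10:107271123-107273695) the highest H3K27me3 fold was 3.12 and the H3K27ac fold 3.23 in wild type and 5.51 in HD. Pcsk1 (ENSMUSG00000021587), the prohormone convertase that cleaves neuropeptide precursors, was at 6.08 and 7.06 CPM in wild type, 27.3 and 22.7 in HD, and 3.43 and 5.14 in EH. Its log2 fold change in HD was 1.92 ± 0.23 (edgeR adjusted p = 0.0498), just under the threshold. H3K27me3 had a fold of 2.41 at its member (chr13:75089429-75091231), near the lowest called, and H3K27ac was called in HD alone.

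Mnx1 binding was called at none of the 5 promoters, and HD H3K27me3 lay at least 342124 bp away from each. With the scaling of relative log expression (RLE) in place of the trimmed mean (TMM), Lin7a and Pcsk1 missed the threshold (adjusted p = 0.051 each), and with limma Cttnbp2 did (adjusted p = 0.397). Leaving out any 1 of the HD or wild-type libraries ended every call in the fit of 6 libraries (0 member genes called by edgeR each time, 61 to 76 at an unadjusted p under 0.05), and the replicate block did too (0 called by edgeR, 109 at an unadjusted p under 0.05). In the fit of HD and wild type alone, described next, all 5 passed. Leaving a library out of that fit leaves a group with only 1 library, so such fits are a weak check of these calls.

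**Figure D5:**
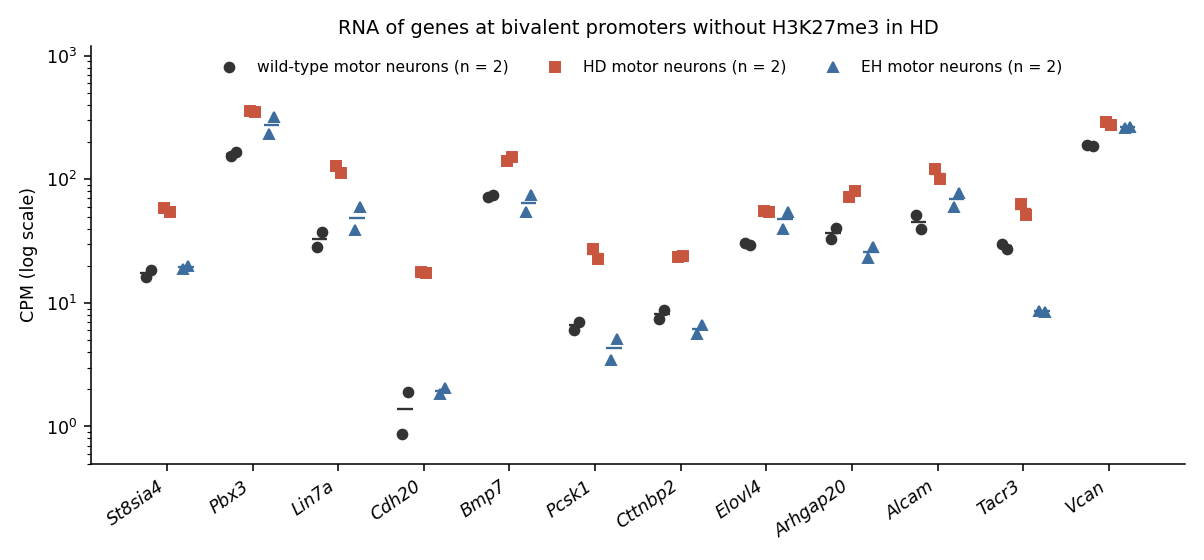
Level per library (y axis, CPM, log scale) of 12 member genes that passed in the fit of HD and wild type alone (x axis), with wild type as circles, HD as squares, EH as triangles and lines at group means. For Cdh20 both HD libraries (17.9 and 17.5 CPM) lie above all wild-type and EH libraries (0.869 to 2.06 CPM).

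When HD and wild type were fitted alone, without the EH libraries, 42 member genes rose and 4 fell of 976 tested (4.71%), against 2.21% of all genes (1.71% higher and 0.507% lower). Genes at retained regions gave 111 higher and 32 lower of 2271 (6.30%), and genes without H3K27me3 75 and 24 of 9360 (1.06%). Of the 42, 14 were at least 2-fold higher. H3K27ac was called in both genotypes at 29, in HD alone at 5 (St8sia4, Pcsk1, Gsto1, Man1a and Cdh7) and in neither at 8. Of all 976 member genes tested in that fit, these numbers were 568, 44 and 346. Mnx1 binding was called at 7 of the 42 (16.7%), and at 15.6% of all member genes tested in that fit. The 4 that fell were Ntf3, a neurotrophin, Pde4b, a cAMP phosphodiesterase, Mdk, a heparin-binding growth factor, and Uhrf1, which guides maintenance methylation of DNA.

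Pbx3, a homeodomain cofactor of Hox proteins, was at 153 and 167 CPM in wild type, 359 and 350 in HD, and 232 and 322 in EH. It passed in the fit of HD and wild type alone and missed in the fit of 6 libraries (log2 fold change 1.14, edgeR adjusted p = 0.0544). Bmp7, a BMP ligand, was at 72.4 and 74.8 CPM in wild type, 140 and 152 in HD, and 54.2 and 74.3 in EH. Foxp1, a forkhead factor of limb-innervating motor neurons, was at 49.9 and 66.8 CPM in wild type, 116 and 126 in HD, and 47.2 and 67.9 in EH. For Bmp7 and Foxp1 the EH libraries lay near wild type, and the log2 fold changes in HD were 0.98 and 1.05 in the fit of HD and wild type alone. Tacr3, the neurokinin B receptor, was at 30.1 and 27.5 CPM in wild type, 62.9 and 51.5 in HD, and 8.67 and 8.48 in EH. It stood on opposite sides of wild type in the 2 lines, with H3K27me3 over 89.6% of its member and no H3K27ac. Frmpd4, a postsynaptic scaffold protein, was nearly silent in wild type (0.134 and 0.411 CPM) and EH (0.169 and 0.154 CPM) and reached 1.82 and 2.47 CPM in HD. Alcam, an immunoglobulin adhesion molecule, Arhgap20, a GTPase-activating protein, Vcan, a matrix proteoglycan, and Elovl4, an elongase of very long fatty acids, also passed in the fit of HD and wild type alone.

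Falls in HD were ranked among members with a mean of at least 1 CPM in the higher group and no overlap between groups. The most negative log2 fold changes among these passed neither fit. Patl2 was at 1.87 and 1.16 CPM in wild type and 0.692 and 0.618 in HD. Foxh1, a forkhead partner of SMAD proteins, was at 2.67 and 1.99 CPM in wild type and 1.12 and 1.16 in HD. Smad9, a BMP effector, was at 4.94 and 4.04 CPM in wild type and 2.77 and 2.40 in HD. For Patl2, Foxh1 and Smad9, the log2 fold changes of -1.22, -1.04 and -0.81 had standard errors of 0.45, 0.71 and 0.25. Cryab and Col24a1 were in the same ranking, with log2 fold changes of -1.12 ± 0.55 and -1.07 ± 0.43.

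By group, the axon guidance and adhesion list had 18 member genes tested, of which 1 rose in HD (Cdh20), with a median log2 fold change of 0.15 against 0.13 over the whole list. In the fit of HD and wild type alone, 3 of its members rose, and 22 of 98 genes of the whole list. Pcdh11x, a protocadherin, was at 3.94 and 4.80 CPM in wild type and 8.73 and 9.59 in HD. Of the 9 ion channel members tested, 0 passed by edgeR in the fit of 6 libraries, 0 at an unadjusted p under 0.05 and 0 by DESeq2, and their median log2 fold change was 0.19 against 0.11 over the whole list. Of the 8 FGF and Hedgehog members, 0 passed by edgeR, 1 at an unadjusted p under 0.05 and 0 by DESeq2. Of the 4 BMP and TGF-beta members, 0 passed by edgeR, 2 at an unadjusted p under 0.05 and 1 by DESeq2. The counts for the 5 Wnt members were 0, 1 and 0. Cacna1b, a neuronal calcium channel, was at 121 and 118 CPM in wild type and 146 and 137 in HD. Kcna5, a potassium channel, was at 2.07 and 1.58 CPM in wild type and 3.03 and 2.94 in HD, and H3K27ac was called at its promoter in HD alone. Cacna1b and Kcna5 were higher in both HD libraries without passing, with log2 fold changes of 0.23 ± 0.14 and 0.70 ± 0.34. Of the pathway receptors, the FGF receptor Fgfr1 was at 105 and 95.9 CPM in wild type and 80.3 and 86.2 in HD. The Hedgehog co-receptor Boc was at 9.49 and 7.74 CPM in wild type and 6.57 and 5.72 in HD. Fgfr1 and Boc were lower in both HD libraries without passing, with log2 fold changes of -0.28 ± 0.09 and -0.50 ± 0.36.

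The members most strongly bound by Mnx1 in wild type did not pass in HD in the fit of 6 libraries. They were led by Efna5, an ephrin that guides axons, with a Mnx1 fold of 12.4, then Hoxa5 with 10.6, Tnrc18 with 9.87 and Maf, a bZIP factor, with 8.28. Efna5 was at 31.5 and 31.8 CPM in wild type and 41.7 and 39.3 in HD. Hoxa5 was at 171.7 and 186 CPM in wild type, 262 and 245 in HD, and 78.1 and 100.02 in EH, and it passed in the fit of HD and wild type alone (log2 fold change 0.50). Its order of levels, HD above wild type above EH, held in all 6 libraries.

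EH differed from wild type in many more genes, at members and elsewhere. It shares its wild-type libraries with the HD comparison. Of 994 member genes 98 rose and 187 fell in EH (28.7%), against 21.2% of all genes (9.61% higher and 11.6% lower). Genes at retained regions gave 186 higher and 634 lower of 2349 (34.9%), and the median log2 fold changes were -0.08 at members, -0.31 at retained regions and 0.05 elsewhere. A fit of EH and wild type alone called 181 member genes, against 12.9% of all genes it tested. The count for members depended on single libraries. It fell with either wild-type library left out and rose with either EH library left out. The share over all genes in those fits is not given here, so whether members moved apart from all genes was not tested. H3K27me3 was not mapped in EH, so whether these promoters carry the mark there is not known from these data.

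The 5 genes that rose in HD did not pass in EH, with log2 fold changes from -0.67 at Pcsk1 to 0.52 at Lin7a. Among members that rose in EH were Gfra3, the artemin co-receptor, from 6.95 and 6.92 CPM in wild type to 28.4 and 62.1 in EH, and Chrna3, a nicotinic receptor subunit, from 102 and 93.1 to 295 and 449. Both EH libraries of Gfra3 and Chrna3 lay above both wild-type libraries, with log2 fold changes of 2.65 ± 0.38 and 1.87 ± 0.20 (edgeR adjusted p = 0.00782 and 0.00492). Lama1, a basement membrane laminin, rose from 112 and 121 CPM to 298 and 897, with EH libraries far apart. Among members that fell in EH were Hoxa6, from 2.94 and 3.77 CPM to 0.531 and 0.437, and Ccdc85b, from 8.08 and 6.44 to 0.990 and 0.694. Of the 42 genes that rose in the fit of HD and wild type alone, 8 also rose in EH and 6 fell there. Over all genes, 9.61% rose and 11.6% fell in EH, and the HD and EH comparisons share the wild-type libraries. Pbx3, Elovl4 and Vcan were among the 8, with log2 fold changes of 0.74, 0.60 and 0.43 in EH, and Tacr3 and Arhgap20 among the 6, which fell by 1.80 and 0.55 on the log2 scale. Hoxa5 also fell in EH, by 1.06 on the log2 scale. Of the 5 Hox members tested, 1 rose and 3 fell, and of all 27 Hox genes tested 1 rose and 12 fell.

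Summed levels of markers of several cell types differed between EH and wild type. The 18 trophoblast markers summed to 4443 and 5627 CPM in wild type, 4461 and 5276 in HD, and 3084 and 2339 in EH, and 14 of the 16 tested fell in EH. The 18 motor neuron markers summed to 3947 and 3643 CPM in wild type, 3927 and 3614 in HD, and 5000 and 6739 in EH. Spinal interneuron markers summed to 133 and 164 CPM in wild type, 155 and 169 in HD, and 80.4 and 66.1 in EH. Pluripotency markers summed to 251 and 262 CPM in wild type, 246 and 227 in HD, and 408 and 415 in EH. Neural progenitor markers summed to 687 and 601 CPM in wild type, 742 and 719.7 in HD, and 767 and 848 in EH. Glial markers ran from 108 to 144 CPM and those of endoderm, mesoderm and neural crest from 315 to 607 CPM over the motor neuron libraries. By edgeR in EH, 6 of 18 motor neuron markers rose and 0 fell, and 2 of 23 pluripotency markers rose and 1 fell. Of 17 interneuron markers 1 rose and 8 fell, and of 18 progenitor markers 8 rose and 2 fell. Glial markers gave 1 higher and 2 lower of 10, and endoderm, mesoderm and neural crest markers 3 and 3 of 17. Over all genes 9.61% rose and 11.6% fell. Of the lists of 7 cell classes, only Mesp1 was at 0 in every motor neuron library. Krt18, a keratin of the trophoblast list, was itself at a member and fell in EH by 1.15 on the log2 scale. All 18 motor neuron markers rose and all 24 pluripotency markers fell between ES cells and wild-type motor neurons. The part of these markers in the EH counts was not tested. Library totals ran from 11.2 M to 53.2 M expected counts (M, 1e6), with HD the shallowest.

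Most member genes had changed between ES cells and wild-type motor neurons, as had most genes. Of 1071 member genes tested with the ES libraries, 642 rose and 230 fell in motor neurons (81.4%), against 75.3% of all genes (38.8% higher and 36.5% lower). The median log2 fold change was 1.19 at members, 0.81 at retained regions and -0.03 elsewhere, and it stayed at 1.19 with the 15 genes that had no counts in a group set at their bounds. Asic4, an acid-sensing ion channel family member, was at 77.4 and 73.4 CPM in motor neurons and had no counts in ES cells, a rise of at least 2358-fold when ES cells are set to 3 counts for both libraries together. Kcnip1, a potassium channel-interacting protein, was at least 727-fold higher by the same bound. Gria2, an AMPA receptor subunit, was at 119 and 80.4 CPM in motor neurons with 2 counts in ES cells, a ratio of 4693 (95% counting interval 1298 to 38772). Of the ion channel list, all 9 members tested rose, against 68 of 90 in the whole list. In the axon guidance and adhesion list 16 of 19 members rose, against 81 of 103, and of the Hox genes 5 of 5, against 26 of 29. In the opposite direction, the pluripotency marker Zfp42 fell from 646 and 474 CPM in ES cells to 15.7 and 17.3 in motor neurons. Zfp819, a zinc finger gene, went from 28.7 and 23.8 CPM to 0.134 and 0.343, a ratio of 111 (95% counting interval 53.8 to 276). The ES and motor neuron libraries did not overlap for Asic4, Gria2, Zfp42 and Zfp819.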

How the data were processed

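RNA libraries of 4 groups (2 each) and region lists of wild-type and HD motor neurons were grouped by the submitters' labels. The authors deposited an expected count and a TPM per Ensembl gene, per the file headers, and MACS2 region lists with a fold over background and a −log10 q per region, per the file headers. Lists are 1 per mark and genotype, although most marks have several libraries. The build was mm10, and the tools named without version or role were MACS2, STAR, RSEM, Bowtie2, DESeq2, featureCounts, SAMtools, Trim Galore and Subread, per the submitters' processing notes.

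The members and gene lists were chosen with earlier results of these data known. Regions were overlapped by at least 1 bp, and a gene was placed at a region when a start lay within 1000 bp. Starts were taken from RefSeq promoters (GRCm38.p6), else from either gene end. Symbols were found for 45031 of 45706 genes. After rounding of the expected counts, edgeR 4.0.16 in R 4.3.3 tested all genes that passed filterByExpr, by quasi-likelihood with TMM scaling, with 6 motor neuron libraries in 1 fit for HD and EH (residual df 3) and 8 for ES cells (df 4). SE is the log2 fold change over the square root of F. DESeq2 1.42.0, limma 3.58.1, other scalings and filters, the replicate block and leaving out libraries were alternatives, as was the fit of HD and wild type alone. Levels are CPM from the deposited expected counts, not scaled for length, and TPM as the authors gave them. A group without counts was set to 3 counts over its libraries, and intervals cover counting error only. Python 3.11.15 with pandas 2.3.3, numpy 2.4.6 and matplotlib 3.10.9 did the rest.

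Genes are named as called in HD, largest in change at a mean of at least 1 CPM in either direction, strongest in H3K27me3 or Mnx1 fold, widest, members of the gene lists, or largest in the EH and ES comparisons. On simulated counts over 15565 genes with 200 changed, all above 2 CPM, the HD fit recovered 65% of 2-fold and 97% of 4-fold changes. It made 13 false calls, and each simulated gene had the same spread in every group. Overlaps were checked on simulated regions. Replicates differed by more than sampling noise. The chi-square per degree of freedom between the libraries of a group was 57.6 in EH, 39.4 in ES cells, 6.73 in wild type and 5.05 in HD. This measure also grows with library depth. The fit of 6 libraries shares its estimate of the spread over all motor neuron groups, EH included. No column of another sample was found (0). Sequences of peaks were not used here, since no genome sequence was at hand.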

Additional observations from a re-analysis of the deposited data

Results flagged for a closer look

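Of the member genes chosen by the naming rule, 39 differed between HD and EH, tested as HD against EH in the fit of 6 motor neuron libraries (edgeR, adjusted p under 0.05, where 21.2% of all genes passed). HD was the higher line for 27 and the lower for 12, and many of these genes were named for their change in HD or in EH. The log2 difference, HD minus EH, was 1.58 for St8sia4, 1.34 for Lin7a, 3.22 for Cdh20, 2.59 for Pcsk1 and 2.00 for Cttnbp2, the genes that rose in HD. It was 1.23 for Bmp7, 1.60 for Arhgap20, 0.73 for Alcam, 2.78 for Tacr3, 3.73 for Frmpd4, 1.48 for Cdh7, 1.12 for Foxp1 and 1.55 for Hoxa5, which rose in the fit of HD and wild type alone. The genes that fell in EH were led by Galntl6 with a difference of 3.25, Ccdc85b with 3.02, Hoxa6 with 2.99 and Aspg with 2.31. It was 1.43 for Dusp5, 1.196 for Spef1, 0.99 for Krt18, 0.84 for Pdgfrb, 0.73 for Gria2, 0.71 for Fgf13, 0.56 for Tnrc18, 0.50 for Mgat4a, 0.45 for Dhrs3 and 0.42 for Slitrk1. HD was lower than EH, with differences of -2.90 for Srgn, -2.08 for Gfra3, -1.95 for Lama1, -1.53 for Neurod1, -1.38 for Chrna3 and -0.91 for Dph1. The remaining differences were -0.78 for Vim, -0.61 for Mnx1, -0.58 for Fzd1, -0.56 for Rara, -0.42 for Meis2 and -0.37 for Kdm2a.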

How the results depend on the processing

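Requiring H3K27me3 over at least 50% of the H3K4me3 region left 888 members, and a −log10 q of at least 5 left 234; stricter spacing or H3K4me3 q left 1637 to 1774. The count of member genes called in HD, 5 as given, was 3 with RLE scaling, 18 without the filter on low counts, 25 with DESeq2, 46 in the fit of HD and wild type alone, and 3 over the members covered to 50% or more, chosen as an alternative after seeing the data. It was 0 to 0 when 1 library was left out, and the fit of HD and wild type alone gave 23 (without HD replicate 1), 68 (without HD replicate 2), 35 and 40 (without wild-type replicate 1 and 2). Where 1 library remained in a group, it was assumed to vary like the others. The EH count of 285 was 181 in the fit of EH and wild type alone and 10 to 484 with 1 library left out. The count for ES cells stayed within 807 and 933. The share of all genes called is not given here for RLE scaling, without the filter, or with 1 library left out. Whether the member counts in those fits moved apart from all genes was not tested. No named gene reversed.

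With the replicate number as a block, 0 member genes were called in HD, 187 in EH and 861 against ES cells. The share of all genes called with the block is not given here, so whether members moved apart from all genes was not tested. Same-numbered libraries did not deviate together (correlations from -0.08 to 0.08), so the samples share only a number and the block says nothing of a weaker effect.

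HD and wild-type libraries, at 11.2 M to 13.9 M counts, were the shallowest, and 245 of the 1239 member genes did not pass the filter. How much of that loss goes with depth and how much with low expression was not tested. Regions have no replicate lists, so depth and threshold differences between genotypes could not be measured.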
